A study of Homo sapiens with 36 samples.

Results

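The 38 genes described here drive, restrain or mark the cell division cycle: cyclins, cyclin-dependent kinases (CDKs), CDK inhibitors, CDC25 phosphatases, E2F and retinoblastoma proteins, mitotic kinases and checkpoint proteins, replication proteins and proliferation markers. The list was made by gene name and function, with earlier results of these data known, and its rule uses no accessibility value. The RefSeq annotation holds 38151 protein-coding and lncRNA genes in all. The 36 ATAC-seq libraries, made with a transposase that inserts adapters into open chromatin, come from BT549, an established triple-negative breast cancer cell line labelled wild type. A peak was assigned to a gene when its centre lay in the gene or within 10 kb of either gene end, and peaks that overlapped were joined into regions, separately for each experiment. The 38 genes then had 359 of 204358 regions in the experiment on GATA6, 333 of 189959 in the experiment on BRM014 and 244 of 128681 in the experiment on BRG1 and BRM. CDKN2A and CDKN2B were the 1 pair among the 38 genes whose windows overlapped, so that regions could count for both.

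In the GATA6 experiment (3 libraries per group), cells had siRNA against GATA6 or control siRNA for 72 h, and 500 nM dexamethasone (DEX) for 2 h or vehicle: siGATA6 +DEX, siGATA6 Veh, siCtl +DEX and siCtl Veh. In the BRM014 experiment (4 libraries per group), cells had 10 µM BRM014 or its solvent DMSO, either alone or together with 500 nM DEX, for 4 h: DEX+BRM014, BRM014, DEX+DMSO and DMSO. In the third experiment (4 libraries per group), cells had siRNA against both BRG1 and BRM or control siRNA: siBRG1+siBRM and siCtl. How long that knockdown lasted is not given in the sources used here. DEX is a synthetic agonist of the glucocorticoid receptor. GATA6 is a transcription factor that binds GATA sequences, and BRG1 and BRM are the ATPases of the SWI/SNF chromatin remodelling complexes, which BRM014 inhibits. All groups come from this 1 cell line, the labels number the libraries as biological replicates, and the peak lists hold no RNA or protein level, so neither knockdown was checked here.

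Cyclins D with CDK4 or CDK6 start the phosphorylation of the retinoblastoma protein RB1 in G1, which frees E2F factors to switch on the genes of DNA replication. Cyclins E and A with CDK2 carry cells through S phase, and cyclins A and B with CDK1 carry them into mitosis. CDK inhibitors hold these kinases back, CDC25 phosphatases activate them, and many of the late genes are repressed outside their phase through CHR elements near their start sites and activated through CCAAT boxes bound by NF-Y. Accessibility says where chromatin is open and not how much of a gene is transcribed.

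The lists held 37184 to 131423 peaks per library. The experiments differed in this number, so that counts were compared within an experiment only. Peaks averaged 55519 in DEX+BRM014, 53586 in BRM014, 98808 in DEX+DMSO and 94069 in DMSO, and 50934 in siBRG1+siBRM, against 85769 in siCtl of that experiment. A background level recovered from the authors' weakest peaks, used as a measure of relative depth, ranged from 0.236 to 0.319 in DEX+BRM014, 0.235 to 0.299 in BRM014, 0.252 to 0.297 in DEX+DMSO and 0.241 to 0.305 in DMSO. These ranges overlapped, but in 6 of the 8 libraries with BRM014 13.3% to 17.8% of the weak peaks sat at the recovered level, against 66.2% to 92.3% in the 8 libraries with DMSO, so that equal depth is not shown. Total depth is unknown. Of 8 mesenchymal marker genes, 7 to 8 had a peak at a gene end in each library, as had 1 to 6 of 8 luminal epithelial, 1 to 3 of 5 leukocyte, 0 to 1 of 4 endothelial and 1 to 2 of 4 neural markers.

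The start sites of the 38 genes were open in nearly every library. The gene's 5′ end was known for 31 of them, and at 30 of these starts every one of the 36 libraries held a peak within 1000 bp. The exception was CDKN1A, the gene of the p21 inhibitor, whose outermost annotated start held no peak in any library, while its RefSeq promoter at chr6:36678464-36678763 overlapped a peak in 36 of 36. Of the other 7 genes (CCND1, CCND2, CCNE2, CDK2, CDKN1C, AURKA and MCM5), 6 had a gene end held by all 36 libraries. The gap was CCND2, which encodes cyclin D2: its left end was held in 5 libraries and its right end in 0. The 3′ ends were mostly closed. At 16 of 31 no library held a peak, and only E2F1 and MCM3 had one in all 36. Open starts and 3′ ends were not counted over all genes, so these counts are not read as particular to the 38.

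RefSeq promoters (GRCh38.p14, 250 bases before to 50 after a start) were at hand for 31 of the 38 genes, 49 promoters in all, and 41 of the 49 overlapped a peak in all 36 libraries. The share of all 35116 promoters so held was not counted. The following 3 are shown because their peaks were held by all 36 libraries and because they carry the letters searched for. They belong to CCNB2, which encodes the mitotic cyclin B2 (chr15:59104896-59105195, plus strand), to CDK1, the mitotic kinase (chr10:60778228-60778527, plus strand), and to MCM3, a subunit of the replicative helicase (chr6:52284693-52284992, minus strand). Capitals mark CCAAT (NF-Y), TTTGAA (CHR) and GCGNGAA (E2F) on either strand.
CCNB2 promoter: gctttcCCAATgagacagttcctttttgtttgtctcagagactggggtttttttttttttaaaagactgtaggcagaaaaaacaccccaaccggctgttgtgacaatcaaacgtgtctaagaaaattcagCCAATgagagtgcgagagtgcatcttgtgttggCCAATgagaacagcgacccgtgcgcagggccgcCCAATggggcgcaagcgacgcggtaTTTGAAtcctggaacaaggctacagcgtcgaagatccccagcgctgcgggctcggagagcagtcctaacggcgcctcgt
CDK1 promoter: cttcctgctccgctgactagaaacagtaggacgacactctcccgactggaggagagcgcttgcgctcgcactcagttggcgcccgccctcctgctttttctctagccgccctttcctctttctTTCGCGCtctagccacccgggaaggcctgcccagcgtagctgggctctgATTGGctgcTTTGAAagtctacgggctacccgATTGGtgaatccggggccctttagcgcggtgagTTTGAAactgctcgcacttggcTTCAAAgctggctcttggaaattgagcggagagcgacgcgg
MCM3 promoter: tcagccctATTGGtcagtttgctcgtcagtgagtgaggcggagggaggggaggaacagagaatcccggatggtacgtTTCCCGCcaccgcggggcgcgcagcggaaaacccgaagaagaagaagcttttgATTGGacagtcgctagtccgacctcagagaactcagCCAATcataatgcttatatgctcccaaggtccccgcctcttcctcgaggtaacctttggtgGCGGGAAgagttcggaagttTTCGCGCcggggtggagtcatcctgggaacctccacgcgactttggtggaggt
The CCNB2 promoter held CCAAT at 4 places and TTTGAA at 1. The CDK1 promoter held CCAAT at 2, TTTGAA at 3 and GCGNGAA at 1, and the MCM3 promoter held CCAAT at 3 and GCGNGAA at 3. Over both strands, with matches of different motifs free to overlap, CCAAT stood in 29 of the 49 promoters (59.2%), against 34.6% of all 35116 promoters of this length. GCGNGAA stood in 28.6% of the 49 and 12.2% of all, and TTTGAA in 20.4% and 15.2%. The AP-1 letters TGANTCA stood in 2.04% of the 49 and 7.71% of all, the GATA letters AGATAA in 0 of the 49 and 10.3% of all, and the glucocorticoid receptor letters AGAACA in 8.16% and 14.8%. These are matches of letters, not measured binding.

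Start peaks differed widely in strength. Ranked within each library by the authors' −log10 q, the start peak of MCM3 lay at a median percentile of 0.376 over the 36 libraries, where 0 is the best peak of a list. That of CCNB1, the other cyclin B, lay at 0.798, that of CDK1 at 1.22 and that of CDC20, the activator of the anaphase-promoting complex, at 1.27. At the weak end stood CDK6, the G1 kinase, whose start peak lay at a median percentile of 36.8 and at 82.7 in its weakest library. CDKN1B, which encodes the p27 inhibitor, lay at 25.9. Among the mitotic genes PLK1 lay at 7.49 and BUB1, a spindle checkpoint kinase, at 19.4, and among the replication genes PCNA lay at 2.94 and MCM2 at 8.29. MKI67, the gene of the proliferation antigen Ki-67, lay at 22.2, and E2F3, an activator of S phase genes, at 1.84.

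**Figure D1:**
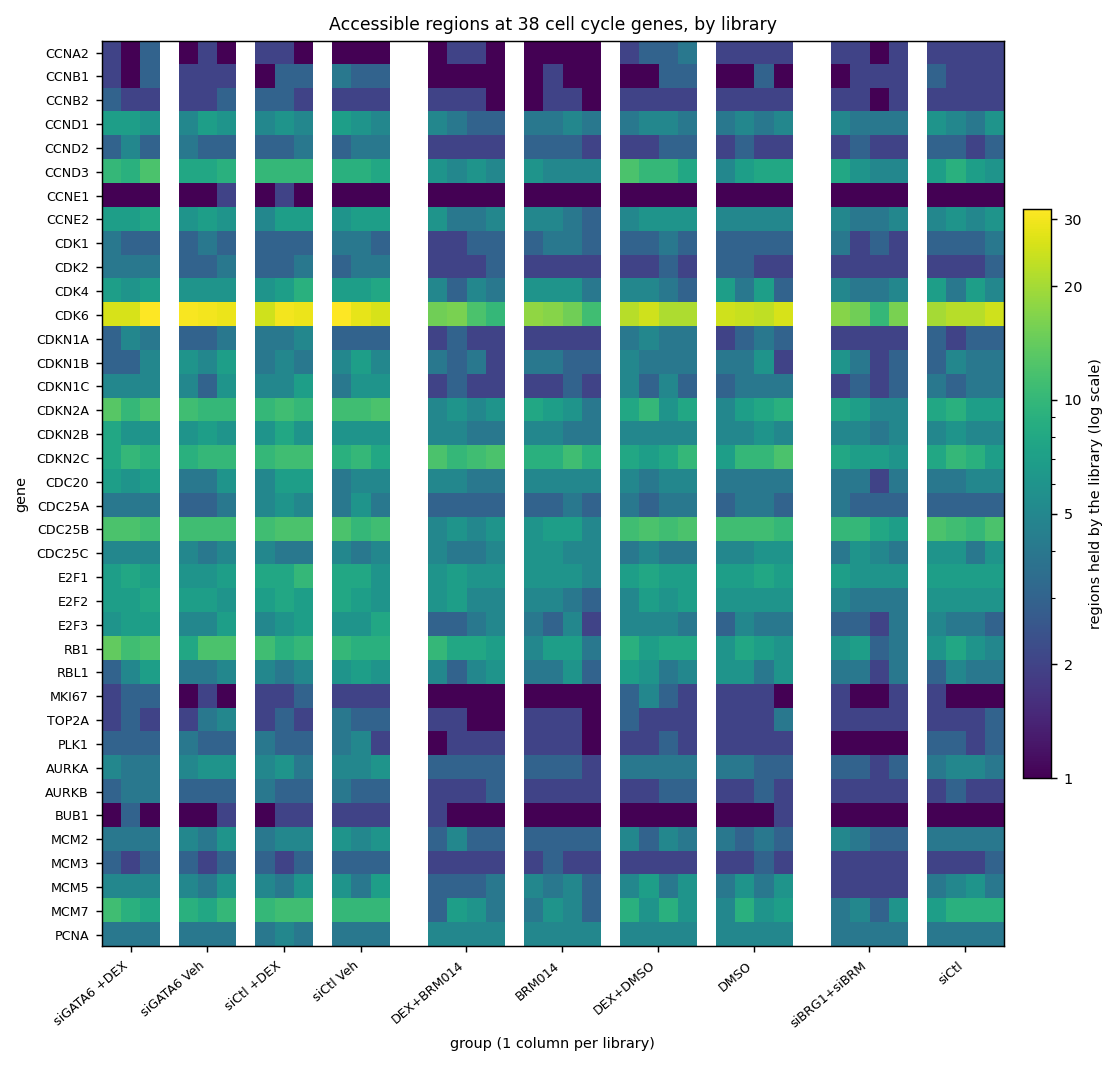
Number of regions held (colour, log scale) at each of the 38 genes (rows) in each of the 36 libraries (columns, grouped by condition and experiment). CDK6 held 10 to 32, the most in every library but DEX+BRM014 4, where it held 10 and CDKN2C 12. CCNE1 and BUB1 held 1 to 3.

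Genes differed as much in the number of regions as in start strength, as the map of regions by library shows. CDK6, the longest of the 38 at 231653 bp, held 10 to 32 regions per library, while CCNE1, the gene of cyclin E1, held 1 region in all but 2 of the 36 libraries. PCNA, the sliding clamp of DNA replication, held 5 regions in each of the 16 libraries of the BRM014 experiment and 4 in each of the 8 of the BRG1 and BRM experiment. The number of regions over all 38 genes was 119 to 157 in BRM014 (mean 146.5 ± 18.4 SD, n = 4), against 168 to 186 in DMSO (180.25 ± 8.34, n = 4), with no overlap. It was 141 to 151 in DEX+BRM014 (146.5 ± 5.26, n = 4), against 185 to 193 in DEX+DMSO (190 ± 3.56, n = 4), and 118 to 158 in siBRG1+siBRM (140.25 ± 16.9, n = 4), against 176 to 186 in siCtl (180.25 ± 4.65, n = 4). In the GATA6 experiment the 4 groups averaged between 212 and 222.667 and overlapped.

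To ask where SWI/SNF ATPase inhibition closed or opened chromatin at these genes, a region was called lost when no treated and every control library held it, gained in the opposite case, and kept when every library of both groups held it. With BRM014 alone, 11 of 266 regions at the 38 genes were lost (4.14%), 1 was gained and 105 were kept, against 11.1% lost, 0.0427% gained and 22.2% kept of all 142888 regions. With BRM014 in the presence of DEX, 14 of 282 were lost (4.96%), 1 was gained and 112 were kept, against 11.5% lost, 0.0787% gained and 22.5% kept of 152489 regions. Every one of the 38 genes kept at least 1 gene-end region, that is, a region within 1000 bp of an end of an annotated gene, in both comparisons. At CCND2 this was an end of another gene, as no library of this experiment held a peak at its own ends. The share of all genes with a kept gene-end region was not counted. Of gene-end regions, 51.9% at the 38 genes and 43.4% near all genes were kept with BRM014 alone. In the presence of DEX 55.4% and 44.5% were kept. Regions that are not gene-end are called distal. Annotated starts inside a gene do not count as ends, so distal regions can include promoters. Split by class, lost regions were 3.88% of gene-end and 4.38% of distal regions at the 38 genes with BRM014 alone, against 5.92% and 12.3% near all genes. In the presence of DEX they were 2.31% and 7.24%, against 5.96% and 12.5%. With the lists as deposited, the share lost at the 38 genes was thus below the share near all genes in both classes and both comparisons. No test of that difference was made, and the shares by class were not set side by side with equally long lists. Without any 1 library the counts of changed regions ran from 12 to 17 with BRM014 alone and from 15 to 20 with DEX.

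**Figure D2:**
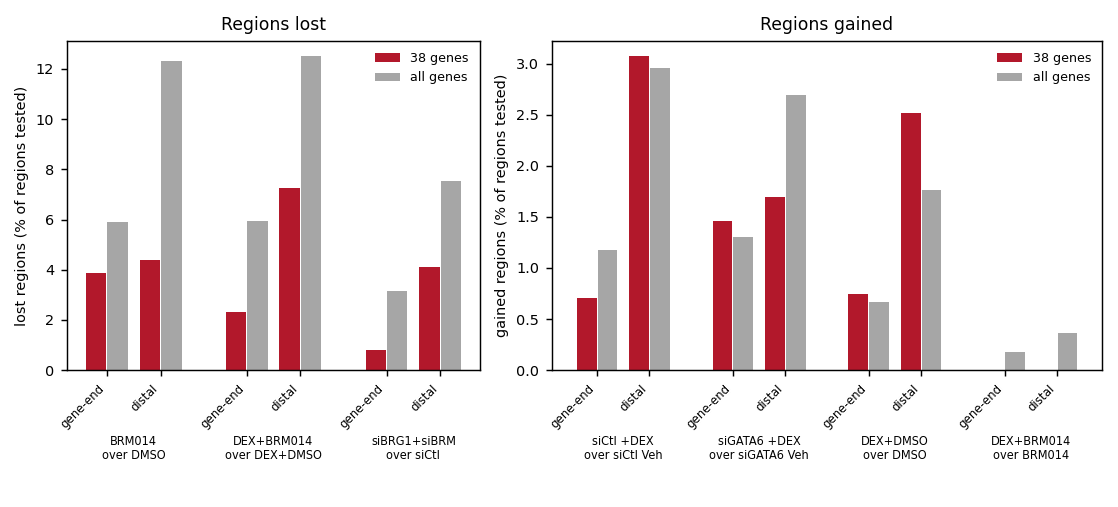
Share of regions lost (left) and gained (right), in percent of regions tested, at the 38 cell cycle genes (red) and near all genes (grey), for gene-end and distal regions, in the 3 comparisons of BRM014 or siBRG1+siBRM with their controls (lost) and the 4 of DEX with no DEX (gained). In these 3 comparisons lost shares at the 38 genes lie below those near all genes in every pair of bars, and in the 4 DEX comparisons gained shares lie on both sides.

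Among the cyclins, losses fell on CCNA2 and CCND3. At CCNA2, which encodes cyclin A2, a region at chr4:121823168-121823394, inside the gene 602 bp from the 5′ end, was held by 0 of 4 BRM014 libraries and 4 of 4 DMSO libraries, and by 2 of 4 DEX+BRM014 and 4 of 4 DEX+DMSO libraries. The start peak itself was held by all 36 libraries. At CCND3, which encodes cyclin D3, 3 regions were lost with BRM014 in the presence of DEX, each held by 0 of 4 DEX+BRM014 and 4 of 4 DEX+DMSO libraries. They lay inside the gene at chr6:42045671-42046155, chr6:42048644-42048819 and chr6:41941438-41941578. Without DEX, the first was held by 0 of 4 BRM014 and 0 of 4 DMSO libraries, the second by 1 of 4 and 2 of 4, and the third by 0 of 4 and 2 of 4.

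The second of these CCND3 regions, counted above as distal, lies in a RefSeq promoter (chr6:42048639-42048938, minus strand). This promoter is shown beside the CCND3 promoter that all 36 libraries held (chr6:41941759-41942058, minus strand). Capitals mark in the first the 176 bases shared with the lost region and in the second the CCAAT letters.
CCND3 upstream promoter, lost with DEX+BRM014: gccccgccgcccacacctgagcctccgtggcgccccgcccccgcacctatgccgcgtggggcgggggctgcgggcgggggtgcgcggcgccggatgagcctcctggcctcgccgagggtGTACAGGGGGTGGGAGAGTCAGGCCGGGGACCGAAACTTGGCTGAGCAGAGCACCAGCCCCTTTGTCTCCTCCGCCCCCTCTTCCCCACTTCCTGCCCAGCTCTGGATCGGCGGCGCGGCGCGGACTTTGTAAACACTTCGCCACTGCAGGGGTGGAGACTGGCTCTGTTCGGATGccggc
CCND3 downstream promoter, kept: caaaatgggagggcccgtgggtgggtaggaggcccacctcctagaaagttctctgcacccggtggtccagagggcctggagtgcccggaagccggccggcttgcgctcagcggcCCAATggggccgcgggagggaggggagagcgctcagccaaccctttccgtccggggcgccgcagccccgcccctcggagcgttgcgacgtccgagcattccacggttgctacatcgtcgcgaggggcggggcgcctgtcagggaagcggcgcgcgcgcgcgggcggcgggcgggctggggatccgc
The upstream promoter overlapped a peak in 0 of 4 DEX+BRM014, 4 of 4 DEX+DMSO, 1 of 4 BRM014 and 2 of 4 DMSO libraries, in 1 of 4 siBRG1+siBRM and 2 of 4 siCtl libraries, and in all 12 libraries of the GATA6 experiment. None of the 6 motifs was found in it, which says only that those letters are absent from these 300 bases. Its peaks in DEX+DMSO lay at a mean percentile of 57.0, and under a −log10 q minimum of 5, or with equally long lists, the region was no longer called lost.

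CDK6 had the most losses among the kinases with BRM014 alone. It is the longest of the 38 genes, with 38 regions in this experiment, and the count was not scaled to that number. With BRM014 alone, chr7:92730860-92731113, chr7:92759142-92759456 and chr7:92832271-92832380 were each held by 0 of 4 BRM014 and 4 of 4 DMSO libraries, at 105586, 77274 and 4248 bp inside the gene from its 5′ end. In the presence of DEX these 3 were held by 0 of 4 DEX+BRM014 libraries and by 2, 3 and 2 of 4 DEX+DMSO libraries, short of the rule for lost. The region called lost with DEX was chr7:92809791-92810031, held by 0 of 4 DEX+BRM014 and 4 of 4 DEX+DMSO libraries, and by 1 of 4 BRM014 and 4 of 4 DMSO libraries. CDK1, CDK2 and CDK4 had no lost region in either comparison. Of the CDK inhibitors, CDKN1A lost 1 region, upstream and 9183 bp from its nearest end, at chr6:36667158-36667401, held by 0 of 4 DEX+BRM014 and 4 of 4 DEX+DMSO libraries, and by 0 of 4 BRM014 and 3 of 4 DMSO libraries. CDKN1B, CDKN1C, CDKN2A, CDKN2B and CDKN2C had none.

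Among the 38 genes, CDC25B, with 17 regions in this experiment, lost the most: 4 with BRM014 alone and 4 in the presence of DEX. CDC25B encodes a phosphatase that activates CDK1 and CDK2. Its regions at chr20:3797855-3798002, inside the gene, and chr20:3811924-3812211, downstream of it, were held by 0 of 8 libraries with BRM014 and 8 of 8 with DMSO across both DEX settings. The downstream region lies within 1000 bp of an end of another annotated gene. The region at chr20:3811510-3811836, also near an end of another gene, was held by 0 of 4 BRM014 and 4 of 4 DMSO libraries, and by 1 of 4 DEX+BRM014 and 4 of 4 DEX+DMSO libraries. So was the region at chr20:3777998-3778157, which lies upstream, 8873 bp from the nearest end of CDC25B and inside the neighbouring gene SPEF1. Next to it, chr20:3777767-3777897 was held by 0 of 4 DEX+BRM014 and 4 of 4 DEX+DMSO libraries, and by 1 of 4 BRM014 and 4 of 4 DMSO libraries. The fourth loss in the presence of DEX, at chr20:3810390-3810604, is described with the DEX comparisons. With equally long lists 1 of these 8 calls held, that of chr20:3811924-3812211 in the presence of DEX. CDC25A and CDC25C had no lost region in either comparison.

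**Figure D3:**
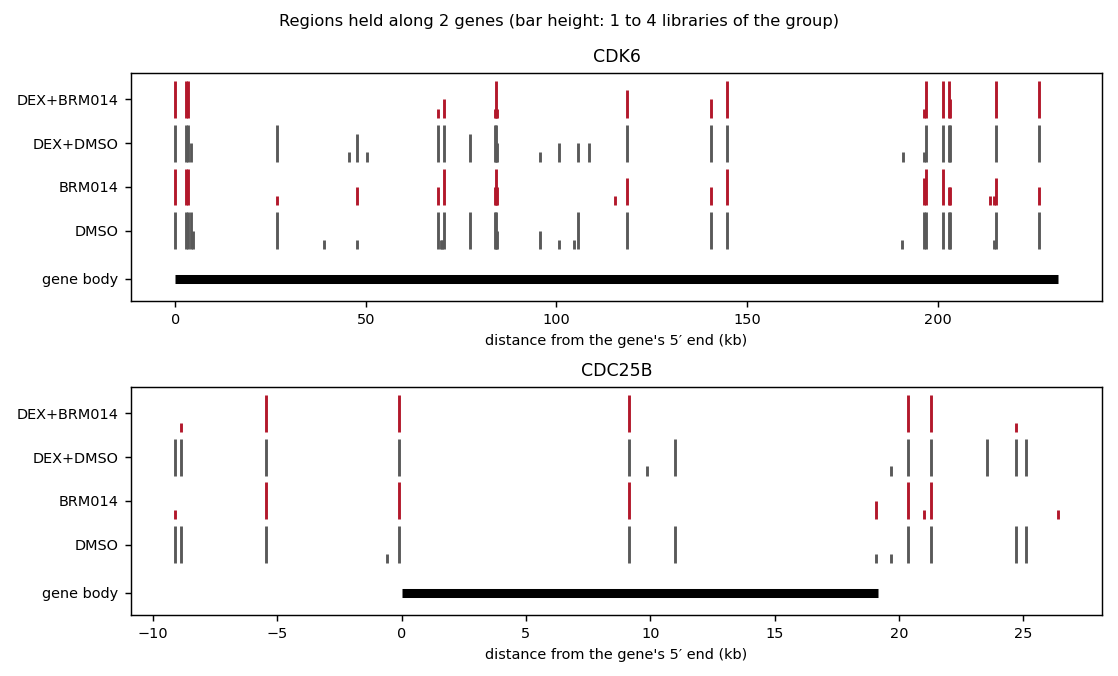
Regions along CDK6 (top) and CDC25B (bottom) by distance from the gene's 5′ end in kb, with a bar whose height is the number of libraries of the group, 1 to 4, that held the region, and the gene body in black. At CDC25B the regions at 10978 and 25116 bp have no bar in either BRM014 row and full bars in both DMSO rows.

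The 1 gained region in each BRM014 comparison was the same one, beyond the 3′ end of CDC20 and inside the neighbouring gene ELOVL1, at chr1:43363268-43363463. It was held by 4 of 4 DEX+BRM014 and 0 of 4 DEX+DMSO libraries, and by 4 of 4 BRM014 and 0 of 4 DMSO libraries. In the other experiments, siBRG1+siBRM libraries held it in 0 of 4 and siCtl libraries in 1 of 4, and in the GATA6 experiment it was held by 3 of 3 siGATA6 +DEX, 0 of 3 siGATA6 Veh, 2 of 3 siCtl +DEX and 1 of 3 siCtl Veh libraries. Without DEX its peaks lay at a mean percentile of 79.7 of the −log10 q ranking, and the call did not survive a −log10 q minimum of 5, equally long lists or 50% cover. In the presence of DEX it lay at 51.3 and the call held under all 3.

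In the E2F and retinoblastoma group, E2F1, the activator of S phase genes, lost a region 532 bp inside its 5′ end at chr20:33685756-33685951, held by 0 of 4 BRM014 and 4 of 4 DMSO libraries, and by 1 of 4 DEX+BRM014 and 4 of 4 DEX+DMSO libraries. Its start peak was held by all 36 libraries. RB1 lost chr13:48451144-48451511, inside the gene, held by 0 of 4 BRM014 and 4 of 4 DMSO libraries, and by 0 of 4 DEX+BRM014 and 2 of 4 DEX+DMSO libraries. E2F2 and RBL1, the gene of the RB1 relative p107, had no lost region in either comparison.

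MCM5, another helicase subunit, held the region that was lost in all 3 comparisons of SWI/SNF ATPase loss. It lies inside the gene at chr22:35426628-35426904 and was held by 0 of 4 DEX+BRM014 and 4 of 4 DEX+DMSO libraries, by 0 of 4 BRM014 and 4 of 4 DMSO libraries, and, as chr22:35426631-35426904, by 0 of 4 siBRG1+siBRM and 4 of 4 siCtl libraries. All 12 libraries of the GATA6 experiment held it. In the libraries with a peak its mean percentile was 31.3 to 40.3. MCM2, MCM3, MCM7 and PCNA had no lost region with BRM014. AURKA, a mitotic kinase at the spindle poles, lost a region inside the gene at chr20:56374036-56374277, held by 0 of 4 DEX+BRM014 and 4 of 4 DEX+DMSO libraries, and by 0 of 4 BRM014 and 2 of 4 DMSO libraries.

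The start of AURKB, the kinase of the chromosomal passenger complex, stood apart among the promoters of mitotic genes. All 36 libraries held a peak within 1000 bp of it, but the promoter itself (chr17:8210176-8210475, minus strand) overlapped a peak in 2 of 4 DEX+BRM014, 4 of 4 DEX+DMSO, 1 of 4 BRM014, 4 of 4 DMSO, 3 of 4 siBRG1+siBRM and 4 of 4 siCtl libraries, and in all 12 of the GATA6 experiment. It met neither the rule for lost nor that for kept. It is shown for this reason, with CCAAT on the opposite strand in capitals.
AURKB promoter: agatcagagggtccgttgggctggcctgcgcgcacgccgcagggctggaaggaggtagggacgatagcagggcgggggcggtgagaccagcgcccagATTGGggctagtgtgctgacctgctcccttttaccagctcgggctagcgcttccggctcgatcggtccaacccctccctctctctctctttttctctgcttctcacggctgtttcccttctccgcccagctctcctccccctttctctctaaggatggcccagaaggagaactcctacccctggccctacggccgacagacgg
The upstream promoter of CDKN2A (chr9:21995275-21995574) overlapped a peak in 3 of 4 DEX+BRM014, 3 of 4 DEX+DMSO, 0 of 4 BRM014, 2 of 4 DMSO, 0 of 4 siBRG1+siBRM and 1 of 4 siCtl libraries. Its downstream promoter (chr9:21974808-21975107) overlapped one in all 36.

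The number of regions held at each gene was tested over all genes. Labels were permuted within the DEX settings (exact two-sided permutation test, 4900 arrangements, smallest possible p 0.000408) with Benjamini-Hochberg adjustment over 33117 genes and a threshold of 0.05. With the lists as deposited, 10 of the 38 genes (26.3%) held fewer regions with BRM014 and 0 held more, against 41.3% of all genes lower and 0.0483% higher. At an unadjusted p under 0.05, 12 of the 38 were lower and 0 higher, against 15971 lower and 44 higher of the 33117 genes. The median difference was -17.2% over the 38 genes and -35.1% over all genes. This count depends on list length: with each list cut to its 41026 best peaks, the size of the shortest, 1 of the 38 genes was lower and 10 were higher, and over 27898 genes 2397 were lower and 1864 higher. Other peaks then stand in for those that drop out, so that a gene can be higher without a new peak. CDC25B was the 1 gene of the 38 that was lower under both counts.

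CDC25B held 5, 6, 5 and 6 regions in DEX+BRM014 and 6, 7, 7 and 5 in BRM014, against 11, 12, 11 and 12 in DEX+DMSO and 11, 11, 11 and 10 in DMSO. Every library with the inhibitor was below every library without it. The means were 5.875 ± 0.835 and 11.125 ± 0.641 (SD, n = 8 each; exact permutation test, adjusted p = 0.00259). CDK6 held 15, 16, 12 and 10 regions in DEX+BRM014 and 18, 17, 15 and 11 in BRM014, against 22, 25, 21 and 21 in DEX+DMSO and 25, 24, 23 and 26 in DMSO. These groups did not overlap either, and the means were 14.25 ± 2.92 and 23.375 ± 1.92 (SD, n = 8 each; exact permutation test, adjusted p = 0.00259). With equally long lists CDK6 differed by -0.75 regions and did not pass.

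The other 8 genes that were lower as deposited held 1 to 12 regions per library. MKI67 held 1 region in each of the 8 libraries with BRM014, against 3, 5, 3 and 2 in DEX+DMSO and 2, 2, 2 and 1 in DMSO (exact permutation test, adjusted p = 0.0078). The DMSO library with 1 region overlaps the treated ones. CCNA2 held 1, 2, 2 and 1 in DEX+BRM014 and 1 in each BRM014 library, against 2, 3, 3 and 4 in DEX+DMSO and 2 in each DMSO library (exact permutation test, adjusted p = 0.00576). Within each DEX setting, CCNA2 overlapped only with DEX, at 2 regions. CCND3 averaged 5.375 ± 0.518 with BRM014 and 8.5 ± 2.14 with DMSO (SD, n = 8 each; exact permutation test, adjusted p = 0.0078), and 1 DMSO library with 5 regions overlapped. E2F1 held 5 to 7 regions with BRM014 and 7 to 8 with DMSO (exact permutation test, adjusted p = 0.00697).

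CDKN1A averaged 2.125 ± 0.354 and 3.625 ± 0.916 regions with BRM014 and with DMSO (SD, n = 8 each; exact permutation test, adjusted p = 0.0078). CDKN1C, the gene of the p57 inhibitor, averaged 2.25 ± 0.463 and 3.875 ± 0.835 (SD, n = 8 each; exact permutation test, adjusted p = 0.00889), and AURKA 2.875 ± 0.354 and 3.75 ± 0.463 (SD, n = 8 each; exact permutation test, adjusted p = 0.0137). All 3 overlapped between the groups. MCM7 held 3, 7, 6 and 4 regions in DEX+BRM014 and 4, 6, 5 and 3 in BRM014, against 9, 6, 9 and 6 in DEX+DMSO and 5, 9, 6 and 7 in DMSO. Its adjusted p of 0.0461 (exact permutation test) lay just inside the threshold and was above it in 8 of the 16 tests that left out 1 library. With equally long lists MCM7 was higher with BRM014, by 1.125 regions.

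**Figure D4:**
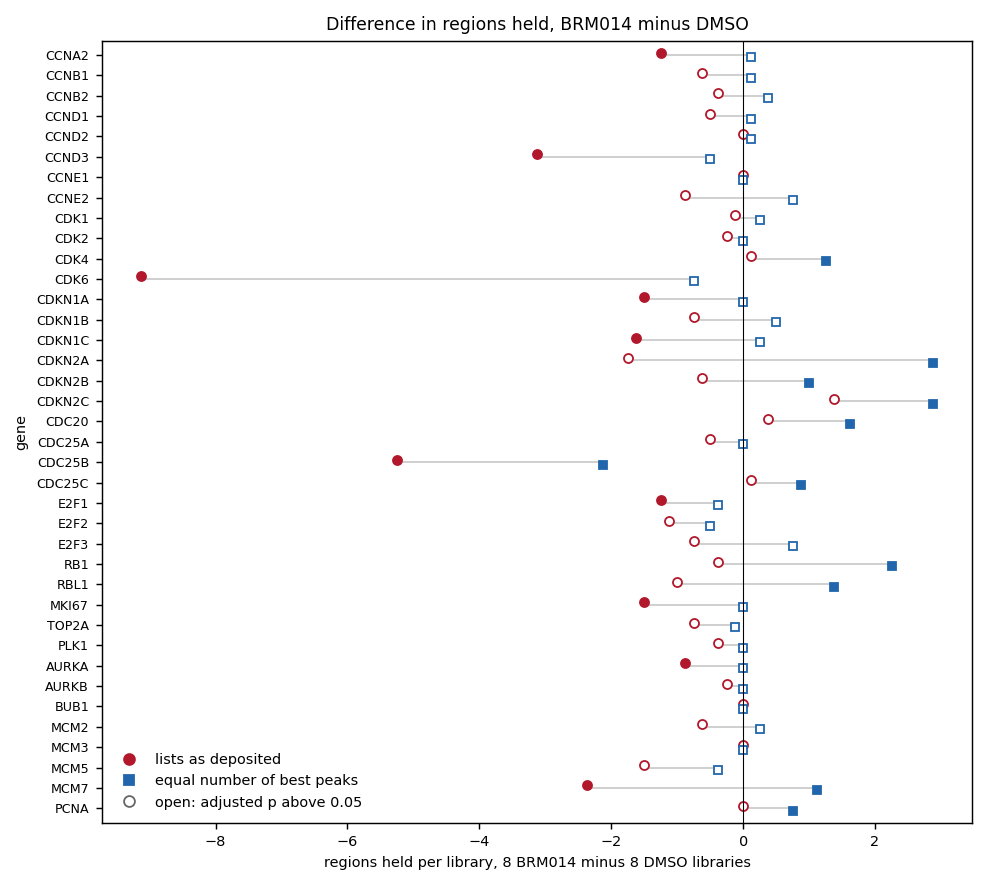
Difference in the mean number of regions held per library, 8 libraries with BRM014 minus 8 with DMSO, for each of the 38 genes, with the lists as deposited (red circles) and with equally many best peaks per list (blue squares), filled where the adjusted p is at most 0.05. As deposited 10 genes are lower and none higher, and with equal lists CDC25B alone is lower and 10 genes are higher.

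The 10 genes that were higher with equally long lists were CDK4, CDKN2A, CDKN2B, CDKN2C, CDC20, CDC25C, RB1, RBL1, MCM7 and PCNA. Of these, 9 did not pass with the lists as deposited, and MCM7 turned its direction. CDKN2C, which encodes the p18 inhibitor of CDK4 and CDK6, held 12, 10, 11 and 12 regions in DEX+BRM014 and 9, 9, 11 and 9 in BRM014, against 8, 7, 8 and 10 in DEX+DMSO and 7, 10, 10 and 12 in DMSO, as deposited. These ranges overlapped. With equal lists it was higher by 2.875 regions (exact permutation test, adjusted p = 0.00784). PCNA, with its constant 5 regions as deposited, was higher by 0.75 with equal lists (exact permutation test, adjusted p = 0.0415).

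Knockdown of both ATPases by siRNA was measured in a separate experiment with its own control. Of 244 regions at the 38 genes, 6 were lost (2.46%), 0 were gained and 107 were kept, against 6.61% lost, 0.0272% gained and 22.4% kept of 128681 regions. All 38 genes kept a gene-end region, a count not made over all genes. Of gene-end regions, 57.4% at the 38 genes and 42.9% near all genes were kept. Lost regions were 0.82% of gene-end and 4.1% of distal regions at the 38 genes, against 3.15% and 7.53% near all genes. Besides the MCM5 region, the losses were at CDK6 (chr7:92730856-92731143 and chr7:92759142-92759440), CDC25B (chr20:3778014-3778151), AURKA (chr20:56374078-56374236) and PLK1, the polo-like mitotic kinase (chr16:23691476-23691810), each held by 0 of 4 siBRG1+siBRM and 4 of 4 siCtl libraries. The PLK1 region lies beyond its 3′ end inside ERN2, and in the BRM014 experiment 3 of 4 DEX+BRM014, 4 of 4 DEX+DMSO, 3 of 4 BRM014 and 4 of 4 DMSO libraries held it. Without siBRG1+siBRM library 4, or without siCtl library 1, 10 regions were called in place of 6.

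Some regions lost with BRM014 were still held after knockdown. The CDC25B regions at chr20:3797855-3798002, chr20:3811510-3811836 and chr20:3811924-3812211 were held, in their form in that experiment, by 3, 4 and 3 of 4 siBRG1+siBRM and 4 of 4 siCtl libraries. The regions near the starts of CCNA2 and E2F1 were each held by 3 of 4 siBRG1+siBRM and 4 of 4 siCtl libraries. The 2 experiments used different agents and controls, so the values stand side by side without a test.

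No gene passed the test on region numbers in the knockdown experiment, where 4 libraries against 4 allow no p below 0.0286 and 17878 genes would have had to reach it. At that smallest unadjusted p stood 6 of the 38 genes, all with fewer regions in siBRG1+siBRM. CDK6 held 17, 15, 10 and 16 regions in siBRG1+siBRM and 20, 22, 22 and 25 in siCtl. MCM7 held 4, 5, 3 and 6 in siBRG1+siBRM and 7, 9, 9 and 9 in siCtl, and MCM5 held 2 in each siBRG1+siBRM library and 4, 5, 6 and 4 in siCtl. These ranges do not overlap, nor do those of E2F2, PLK1 and AURKA. The adjusted p was 0.157 for all 6 (exact permutation test), and over all genes 5689 of 31285 reached the smallest p. The median difference was -17.4% over the 38 genes and -33.3% over all genes.

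A small set of regions at these genes was gained with DEX. After 2 h with control siRNA, 6 regions were gained (1.97% of those tested at the 38 genes), 3 lost and 165 kept, against 2.51% gained, 0.816% lost and 45.9% kept of 170679 regions. After 2 h with siRNA against GATA6, 5 of 315 were gained (1.59%), 2 lost and 166 kept, against 2.35%, 0.594% and 45.3% of 174955. After 4 h with DMSO, 5 of 293 were gained (1.71%), 1 lost and 135 kept, against 1.52%, 0.438% and 34.1% of 166216. After 4 h with BRM014, 0 of 228 were gained, 1 lost and 102 kept, against 0.328%, 0.147% and 30.1% of 98389. Near all genes, gains were 1.18% of gene-end and 2.96% of distal regions in the first comparison, 1.3% and 2.69% in the second, 0.664% and 1.76% in the third and 0.178% and 0.366% in the fourth. At the 38 genes 1 gene-end and 5 distal, 2 and 3, 1 and 4, and 0 and 0 regions were gained in these comparisons. Leaving out 1 library moved the first count of changed regions from 9 to 14 without siCtl +DEX 1, siCtl +DEX 2 or siCtl Veh 2 and to 17 without siCtl +DEX 3. The second moved from 7 to 11 without siGATA6 +DEX 2 or siGATA6 Veh 2 and to 14 without siGATA6 Veh 3, and the fourth from 1 to 2 without DEX+BRM014 2 or 3 or BRM014 1, 2 or 4.

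A region at the 3′ end of MKI67 was gained in all 3 of the DEX comparisons made without BRM014, which share no libraries. At 2 h it spans chr10:128096463-128097093 and was held by 3 of 3 siGATA6 +DEX and 0 of 3 siGATA6 Veh libraries, and by 3 of 3 siCtl +DEX and 0 of 3 siCtl Veh libraries. At 4 h it spans chr10:128096584-128097100 and was held by 4 of 4 DEX+DMSO and 0 of 4 DMSO libraries, but by 0 of 4 DEX+BRM014 and 0 of 4 BRM014 libraries. It was thus also called lost in DEX+BRM014 over DEX+DMSO, a comparison that shares the DEX+DMSO libraries with the gain. It lay 119 to 183 bp from the gene end, and its peaks had mean percentiles of 62.2 to 68.5. With equally long lists both 2 h calls held and the 4 h calls did not.

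Regions at RB1 and CDC25B had the same pattern, which was not counted over all regions. The RB1 region lies 3680 bp beyond the gene's 3′ end at chr13:48485391-48485750 (2 h) and chr13:48485406-48485726 (4 h), and RCBTB2 is its nearest protein-coding gene. The CDC25B region lies 4396 bp beyond the 3′ end at chr20:3810416-3810606 and chr20:3810390-3810604. Each was held by 3 of 3 siGATA6 +DEX, 0 of 3 siGATA6 Veh, 3 of 3 siCtl +DEX, 0 of 3 siCtl Veh, 0 of 4 DEX+BRM014, 4 of 4 DEX+DMSO, 0 of 4 BRM014 and 0 of 4 DMSO libraries. Neither was held in the BRG1 and BRM experiment, in which no library had DEX. The 4 h calls at RB1 and CDC25B were lost when only peaks of −log10 q of at least 5 were used and when lists were of equal length, while the 2 h calls at both genes held with equally long lists.

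**Figure D5:**
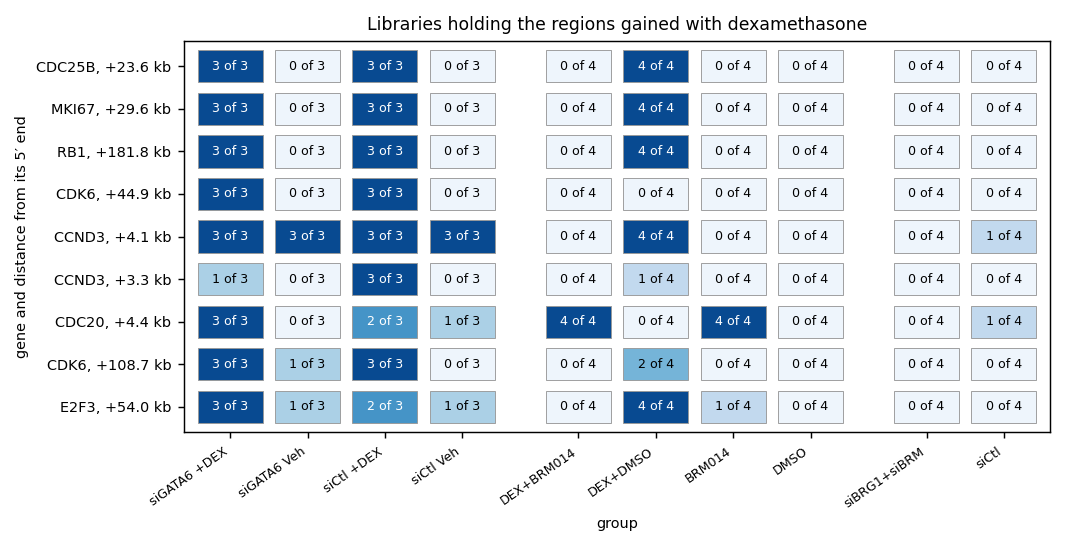
Number of libraries of each group (columns) that held the regions gained with DEX and without BRM014 at MKI67, RB1, CDC25B, CDK6, CCND3, CDC20 and E2F3 (rows, with the distance from the gene's 5′ end in kb). In the first 3 rows all libraries with DEX and without BRM014 held the region, and no other library did.

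Other DEX regions were called at 1 time only. At CDK6, chr7:92791531-92791854 was held by 3 of 3 siGATA6 +DEX, 0 of 3 siGATA6 Veh, 3 of 3 siCtl +DEX and 0 of 3 siCtl Veh libraries, and by none of the 16 libraries of the BRM014 experiment. Also at CDK6, chr7:92727765-92728064 was held by 3 of 3 siCtl +DEX and 0 of 3 siCtl Veh libraries, by 3 of 3 siGATA6 +DEX and 1 of 3 siGATA6 Veh libraries, and at 4 h by 2 of 4 DEX+DMSO and 0 of 4 DMSO libraries. At CCND3, the 4 h gain at chr6:42045671-42046155 was the strongest of the gained regions, at a mean percentile of 16.9, held by 4 of 4 DEX+DMSO and 0 of 4 DMSO libraries. In the GATA6 experiment all 12 libraries held that place, those with vehicle included. Lists there are longer, and whether list length bears on this was not tested. A second CCND3 region, chr6:42046655-42046772, was held by 3 of 3 siCtl +DEX and 0 of 3 siCtl Veh libraries. At E2F3, chr6:20455775-20455940 was held by 4 of 4 DEX+DMSO, 0 of 4 DMSO, 0 of 4 DEX+BRM014 and 1 of 4 BRM014 libraries, at a mean percentile of 82.0. At 2 h that place was held by 3 of 3 siGATA6 +DEX, 1 of 3 siGATA6 Veh, 2 of 3 siCtl +DEX and 1 of 3 siCtl Veh libraries. At the 3′ side of CDC20, the region described above was gained at 2 h with siRNA against GATA6 as chr1:43363329-43363464.

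Losses with DEX were few. With control siRNA they were a region 785 bp beyond CCNB1 (chr5:69178939-69179122), one inside CDKN2A (chr9:21987365-21987523) and one inside RBL1 (chr20:37015065-37015291), each held by 0 of 3 siCtl +DEX and 3 of 3 siCtl Veh libraries. With siRNA against GATA6 they were a region beyond CDKN1B in APOLD1 (chr12:12726862-12727007) and one upstream of MCM2 in TPRA1 (chr3:127592009-127592215), each held by 0 of 3 siGATA6 +DEX and 3 of 3 siGATA6 Veh libraries. At 4 h the 1 loss was at CDC25C, 843 bp inside its 5′ end (chr5:138337434-138337590, 0 of 4 DEX+DMSO and 4 of 4 DMSO libraries). With BRM014 it was upstream of MCM5, 742 bp from HMOX1 (chr22:35394949-35395523, 0 of 4 DEX+BRM014 and 4 of 4 BRM014 libraries). The CCNB1 and RBL1 calls rest on peaks at mean percentiles of 93.1 and 76.6 and did not survive a −log10 q minimum of 5.

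The DEX tests on region numbers called no gene at either time. At 2 h (exact two-sided permutation test within siRNA levels, 400 arrangements) the smallest p of 0.005 was reached by 600 genes where 3319 were needed, and 3 of the 38 genes had an unadjusted p of at most 0.05, with 2641 of 33181 genes in all. CCND3 held 10, 9 and 12 regions in siGATA6 +DEX and 8, 8 and 9 in siGATA6 Veh, and 10 in each siCtl +DEX library and 9, 9 and 8 in siCtl Veh (exact permutation test, p = 0.01, adjusted p = 0.381). CDC20 averaged 6.5 with DEX and 4.67 with vehicle, and CDKN1B 4 with DEX and 5.83 with vehicle (exact permutation test, p = 0.03 and adjusted p = 0.503 for both). None of these passed. At 4 h (4900 arrangements) 35 genes reached the smallest p where 271 were needed, 4 of the 38 genes had an unadjusted p of at most 0.05, with 1661 of 33117 in all, and the lowest was 0.00735 for CDC25C, at 4.375 regions with DEX and 5.5 without (exact permutation test, adjusted p = 0.759).

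Knockdown of GATA6 changed few regions at these genes. With vehicle, 0 were gained, 5 lost (1.64% of the regions tested) and 166 kept, against 0.457% gained, 0.803% lost and 47.5% kept of 167454 regions. By class, 3 gene-end (2.24%) and 2 distal regions (1.18%) were lost, against 0.472% and 0.879% near all genes. With DEX, 3 were gained (0.984%), 1 lost (0.328%) and 172 kept, against 0.673%, 0.711% and 47.5% of 171801. All 4 of these changes were distal, with 1.84% of distal regions gained and 0.613% lost, against 0.717% and 0.777% near all genes. No test of these differences was made. The first count of changed regions moved from 5 to between 7 and 10 when 1 library was left out, and to 8 or more without siGATA6 Veh 1, 2 or 3 or siCtl Veh 2 or 3. The second moved from 4 to between 6 and 12, and to 8 or more without siGATA6 +DEX 2 or 3 or siCtl +DEX 1 or 3.

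With vehicle, the CCNB1 and RBL1 regions named above were also lost with siGATA6 (0 of 3 siGATA6 Veh and 3 of 3 siCtl Veh libraries). This comparison shares the siCtl Veh libraries with the DEX comparison, and 0 of 3 siGATA6 +DEX libraries held either region. A second region beyond CCNB1 (chr5:69182104-69182269) was held by 0 of 3 siGATA6 Veh and 3 of 3 siCtl Veh libraries, as was one 433 bp inside the 5′ end of CDK4 (chr12:57751786-57751968) and one 7371 bp beyond CDKN2C (chr1:50981942-50982068). With DEX these 3 were held by 1, 1 and 1 of 3 siGATA6 +DEX and 2, 1 and 3 of 3 siCtl +DEX libraries. The start peak of CDK4 was held by all 36 libraries.

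With DEX, the gains with siGATA6 lay inside CCND1, the gene of cyclin D1 (chr11:69644349-69644579), inside RB1 (chr13:48407003-48407126) and at the CDKN2A region named above, each held by 3 of 3 siGATA6 +DEX and 0 of 3 siCtl +DEX libraries. In the vehicle groups, 2 of 3 siGATA6 Veh libraries held each of the 3, and 0, 0 and 3 of 3 siCtl Veh libraries. The 1 loss was inside CCND3 (chr6:42028625-42028798), held by 0 of 3 siGATA6 +DEX, 3 of 3 siCtl +DEX, 0 of 3 siGATA6 Veh and 1 of 3 siCtl Veh libraries. No gene passed the test on region numbers (exact two-sided permutation test within DEX levels, 400 arrangements), in which 67 genes reached the smallest p where 3319 were needed and 804 of 33181 had an unadjusted p of at most 0.05. The 1 of the 38 genes among these was CDC25A, which held 4, 4 and 4 regions in siGATA6 +DEX and 3, 3 and 4 in siGATA6 Veh, against 5, 6 and 5 in siCtl +DEX and 4, 6 and 4 in siCtl Veh (exact permutation test, p = 0.015, adjusted p = 1).

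A second list of 70 cell cycle genes, among them further replication, mitosis and checkpoint genes, was read beside the 38. With BRM014 alone, 25 of 431 of its regions were lost (5.8%) and 0 gained, against 11.1% and 0.0427% of all regions, and in the presence of DEX 28 of 461 were lost (6.07%) and 1 gained, against 11.5% and 0.0787%. With siBRG1+siBRM, 12 of 401 were lost (2.99%) and 0 gained, against 6.61% and 0.0272%. In the BRM014 test 33 of the 70 (47.1%) held fewer regions and 0 held more, against the 41.3% and 0.0483% of all genes given above, and with equally long lists 2 were lower and 8 higher. The largest differences as deposited were at TFDP2, the gene of an E2F partner (4 to 12 regions with BRM014 and 11 to 16 with DMSO), CDC6, a loader of the replicative helicase (2 to 4 and 7 to 10), and MYBL2, an activator of late cell cycle genes (3 to 5 and 7 to 11), each with an adjusted p of 0.00259 (exact permutation test). With equal lists these 3 did not pass. With DEX and control siRNA for 2 h, 6 of 496 regions of the 70 genes were gained (1.21%) and 2 lost, against 2.51% and 0.816% of all regions. With DEX and siRNA against GATA6, 6 of 480 were gained (1.25%) and 2 lost, against 2.35% and 0.594%. After 4 h of DEX, 6 of 469 were gained (1.28%) and 0 lost with DMSO, against 1.52% and 0.438%, and 1 of 353 was gained (0.283%) and 0 lost with BRM014, against 0.328% and 0.147%. With siGATA6, 0 of 478 were gained or lost with vehicle, against 0.457% and 0.803%, and 2 of 479 were gained (0.418%) and 0 lost with DEX, against 0.673% and 0.711%.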

How the data were processed

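The 36 libraries were grouped by their titles. Per the labels' protocols, each sample held 50000 cells and sequencing was paired-end, 50 bp, with a target of 25 M reads. The submitters' processing notes name MACS2, HOMER, SAMtools and bcl2fastq, and GRCh38 (hg38). Which aligner was used, and how reads were shifted or peaks were called, is not given in the sources used here. The authors deposited 1 peak list per library, with a score, a ratio (fold enrichment at the summit) and −log10 p and −log10 q values per peak. The score was not used in any result. The fold and p gave only the background level, in 3000 weak peaks per library within a tolerance of 0.002, and −log10 q only ranked or filtered peaks.

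Peaks on chromosomes 1 to 22 and X were merged within an experiment, and a library held a region it overlapped by at least 1 bp. Calls and gene tests are as given in the text (Python 3.11.15, NumPy 2.4.6, SciPy 1.17.1, all code for the tests checked on simulated data). Differences in list length between libraries were not simulated, so the check does not cover them. With no depth in the files, no interval was computed. Gene positions and promoters come from RefSeq (GRCh38.p14). Exons and introns were not used here. All 38 genes could be named, and other genes only from the second list, from the marker lists or as the nearest gene of a region. Coordinates were printed for every changed region at a member's own end and for up to 12 others per comparison, by best mean percentile. The 38 genes, the lists and the tests were chosen with earlier results of these data known. Another cell line named in the labels, MDA-MB-231, was not analysed here.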

Additional observations from a re-analysis of the deposited data

Results flagged for a closer look

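In 47 groups of 4 libraries, 4 values stood apart from the other 3 of their group by Dixon's criterion, and chance marks about 1 in 20 groups. BRM014 library 4 held 119 regions at the 38 genes, against 153, 157 and 157 in the other BRM014 libraries, and 47 distal regions, against 68, 68 and 70. It also had the shortest list of its group, with 41026 peaks. In siCtl of the BRG1 and BRM experiment, library 3 had 81639 peaks, against 87609, 87196 and 86631 in the other 3 libraries. In the same group, library 1 held 7 regions at MCM7, against 9 in each of the other 3. Without BRM014 library 4, the BRM014 test called 9 of the 38 genes, against 10 with it. Over all genes 13182 of 33055 were then lower and 52 higher, against 13671 of 33117 and 16 with it.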

How the results depend on the processing

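Counts of changed regions moved most when 1 exception per group was allowed, to 52 for siCtl +DEX over siCtl Veh, 45 for siGATA6 +DEX over siGATA6 Veh, 40 for siGATA6 Veh over siCtl Veh, 47 for siGATA6 +DEX over siCtl +DEX, 17 for DEX+DMSO over DMSO, 12 for DEX+BRM014 over BRM014, 30 for BRM014 over DMSO, 38 for DEX+BRM014 over DEX+DMSO and 30 for siBRG1+siBRM over siCtl. With a −log10 q of at least 5 they were 4 for siCtl +DEX over siCtl Veh, 3 for DEX+DMSO over DMSO and 2 for DEX+BRM014 over BRM014. With equally long lists they were 2 for siGATA6 Veh over siCtl Veh, 2 for DEX+DMSO over DMSO and 2 for DEX+BRM014 over BRM014. With peaks covering at least 50% of a region they were 2 for DEX+BRM014 over BRM014 and 19 for BRM014 over DMSO. The centre of the merged region, in place of peak centres, left all 9 counts as they were. Leaving out 1 library, after which fewer libraries have to meet the rule, gave 11 to 17, 9 to 14, 7 to 10, 6 to 12, 6 to 8, 1 to 2, 12 to 17, 15 to 20 and 6 to 10 for the 9 comparisons, in the order of the first sentence. All these counts stand without the shares of all regions under the same setting, and are not read as a trait of the 38 genes. Of the 65 calls at single regions, 37 held with a −log10 q of at least 5, 26 with equally long lists and 36 with 50% cover, and none turned its direction.

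In the BRM014 test the number of the 38 genes called was 11 with a −log10 q of at least 5, 11 with equally long lists (1 lower and 10 higher), 13 with 50% cover, 11 over genes with at least 5 regions, 10 by region centres and 9 to 12 with 1 library left out. With a −log10 q of at least 5, 12402 of all 30254 genes were lower and 18 higher. With 50% cover 15102 of 33114 were lower and 18 higher. Of genes with at least 5 regions 10685 of 18084 were lower and 15 higher. By region centres 13653 of 33109 were lower and 16 higher. With 1 library left out, from 13182 of 33055 to 14627 of 33092 were lower. With equally long lists 3 genes turned their direction: CCNA2 to a difference of 0.125 regions (adjusted p = 1), CDKN1C to 0.25 (adjusted p = 0.884) and MCM7 to 1.125 (adjusted p = 0.0219, all exact permutation tests). The equal lists keep a smaller part of the longer DMSO lists by construction. With the replicate number as a block, 9 of the 38 genes were called in the BRM014 test, and over all 33117 genes 10628 were lower and 5 higher. The other 4 tests called 0 with and without the block, and in the knockdown test the block allows no p below 0.125, so these say nothing about stability. Deviations of same-numbered libraries correlated at -0.0892 to 0.181, not above 0.1 in every pair of any comparison. In siGATA6 +DEX over siCtl +DEX they correlated at 0.051 to 0.175, above all pairs of different number (-0.172 to 0.0403). In the other comparisons these ranges overlapped. Whether a number marks a shared preparation is thus not settled, and the block was used as an alternative only. The call not made with the block was MCM7. The other 4 tests called 0 of the 38 genes under the other settings too. Peak lists give no depth, which limits how far absence of a peak can be read.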
